A study of Mus musculus with 10 samples.

Results

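MYC is a transcription factor that drives cell growth, and the assembly of ribosomes in the nucleolus is the best known process under its control. It pairs with MAX and binds the sequence CACGTG, the E-box, near the start of many genes of ribosome assembly, nucleotide synthesis and polyamine synthesis, while MXD1 competes for MAX at the same sites and is made as keratinocytes stop dividing and differentiate. In stratified epithelium such as that of the oesophagus, MYC and ribosome assembly are features of the basal, dividing layers.

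The 33 genes described here are MYC and its partners (Myc, Max and Mxd1), 25 genes of nucleolar ribosome assembly and 5 genes of growth and metabolism known as MYC targets. They were picked by gene name for their known roles, with earlier results of these data known, and all 33 were found among the 22740 protein-coding genes of the deposited count table and passed the filter on low counts that left 13731 genes. Across the 10 libraries a member had between 167 and 30620 reads.

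RNA came from the oesophagus of C57BL/6 mice that had all been given 4-NQO, a DNA-damaging carcinogen that induces squamous tumours of the upper digestive tract, so no untreated mice stand beside them. The 5 Grhl3 KO libraries (samples 1026, 1027, 1035, 1036 and 1043) are labelled as knockout of Grhl3, a transcription factor of surface epithelia, and as tumour tissue. The 5 wild-type libraries (samples 1028, 1048, 1528, 1555 and 1561) are labelled only as oesophageal tissue, although the series' design text speaks of tumours in both genotypes, so genotype and tissue label cannot be told apart. The series title calls the knockout conditional and the count columns of the Grhl3 KO group carry the word Cre; the promoter that drives it, and the age, sex and carcinogen dose of the mice, were not stated in the labels. Nothing in the labels ties a library to more than one mouse, and p-values measure the spread between these libraries.

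Total counts ran from 15.3 to 32.9 M (Grhl3 KO mean 24.8 ± 8.21 M, wild-type mean 19.9 ± 2.17 M; SD, n = 5 each). Grhl3 itself stood at 135 to 317 CPM (counts per M of scaled library size) in the Grhl3 KO libraries and at 109 to 363 CPM in the wild-type libraries, so the libraries labelled knockout did not have a lower total Grhl3 count. The keratinocyte markers of oesophagus were present in both groups: basal Krt5 stood at 7418 to 12245 CPM in Grhl3 KO libraries and 9797 to 13383 CPM in wild-type libraries, and suprabasal Krt13 at 8366 to 20771 and 4958 to 43057 CPM in the same order. Of 10 basal markers, 9 had lower fitted values in Grhl3 KO and 1 higher (median log2 fold change −0.27), and 0 passed. At an unadjusted edgeR p under 0.05 there were 2 of the 10 (Ngfr and Pdpn, both lower), beside 7.16% of all genes. The summed level of the 10 markers was 27448 to 36029 CPM in Grhl3 KO libraries and 30554 to 39675 CPM in wild-type libraries. Their part in the members' values was not tested. Wild-type libraries 1528 and 1555 each held 1 read of 4 Y-linked genes, and wild-type library 1561 held 72.3 CPM of them against 154 to 203 CPM in the other 7 libraries, and the comparison was repeated without libraries 1528 and 1555 and without all 3. Skeletal muscle markers, from the outer wall, ranged from 793 to 5947 CPM in Grhl3 KO libraries and from 1376 to 3069 CPM in wild-type libraries as a sum of 15 measured genes; all 15 had higher fitted values in Grhl3 KO (median log2 fold change 0.61) and 0 passed. In whole tissue, fewer cells of a type and less RNA per cell cannot be told apart.

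The promoters were searched for the sequence that MYC and MAX are known to bind; a match is a description of the sequence and not a measured binding site. RefSeq promoter sequences on GRCm38.p6, from 250 bases before to 50 bases after each annotated start, were available for 26 members, and Myc, Npm1, Fbl, Rrp12, Bop1, Srm and Tcof1 had none. The E-box CACGTG, which reads the same on both strands, was present in at least one window of 8 of these 26 members (30.8%), against 1166 of 10162 tested genes with a window (11.5%). The carriers were 5 nucleolar genes (Nop2, Utp20, Pes1, Mybbp1a and Wdr43), Max itself, Cdk4 and Eif4e. The windows around single E-boxes are shown 5′ to 3′ on the gene's own strand, with the E-box in capitals. They show the letters around the motif in nucleolar members (Nop2, Pes1, Wdr43), in MAX's own gene and in Eif4e. The Eif4e promoter held 2 E-boxes, at 228 and 64 bases upstream of the same start, and only the nearer is shown.
Nop2, chr6:125131796-125131855, plus strand, motif 60 bases upstream of the start: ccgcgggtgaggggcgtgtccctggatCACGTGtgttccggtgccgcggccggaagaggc
Pes1, chr11:3963950-3964009, plus strand, motif 2 bases downstream: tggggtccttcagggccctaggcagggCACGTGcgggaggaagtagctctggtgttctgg
Wdr43, chr17:71616205-71616264, plus strand, motif 17 bases downstream: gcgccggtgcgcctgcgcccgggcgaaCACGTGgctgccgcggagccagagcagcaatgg
Max, chr12:76962219-76962278, minus strand, motif 3 bases upstream: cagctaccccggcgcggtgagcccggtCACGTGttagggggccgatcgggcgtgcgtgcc
Eif4e, chr3:138527177-138527236, plus strand, motif 64 bases upstream of one of its starts: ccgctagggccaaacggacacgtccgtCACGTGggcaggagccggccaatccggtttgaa
The Cdk4 promoter held 4 E-boxes, at 172, 118, 98 and 11 bases upstream of the start, and is shown whole because no other member window held more than 2.
Cdk4, chr10:127063285-127063584, plus strand: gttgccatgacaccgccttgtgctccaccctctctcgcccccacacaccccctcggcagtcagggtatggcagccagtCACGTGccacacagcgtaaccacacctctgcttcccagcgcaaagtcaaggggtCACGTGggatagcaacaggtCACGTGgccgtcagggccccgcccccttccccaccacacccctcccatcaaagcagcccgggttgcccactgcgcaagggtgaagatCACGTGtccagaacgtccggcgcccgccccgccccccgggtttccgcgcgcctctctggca
The other 18 members with a promoter sequence, Ncl, Nop56, Nop58, Dkc1 and Odc1 among them, held no CACGTG in this window; variants of the E-box and sites elsewhere in these genes were not searched.

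Levels were compared between members per length, as CPM per kb of annotated exon averaged over the 10 libraries. Most members were well expressed: 28 of 33 lay above the median of all tested genes (5.51 CPM per kb), and the median member stood at 20.6 CPM per kb. Npm1, which encodes the nucleolar chaperone nucleophosmin, had the highest level per kb at 149 ± 19.8 CPM per kb (SD, n = 10). It was followed by Ncl, encoding the rRNA-binding protein nucleolin, at 78.5 ± 12.2 CPM per kb. Odc1 (63.8 ± 40.5), Cdk4 (58.4 ± 8.42), Srm (51.8 ± 7.75) and Myc (43.7 ± 6.71 CPM per kb) came next, and the spread of Odc1 covered the levels of all 3 of its followers. Among the heterodimer partners, Max stood at 24.1 ± 3.97 and Mxd1 at 21.2 ± 9.06 CPM per kb, which did not differ beyond their spread. The lowest members per kb were Rrp1b (3.93 ± 0.730), Fbl (3.63 ± 0.952) and Wdr12 (2.51 ± 0.484 CPM per kb). The length is that of all annotated exons of a gene together, which can exceed the transcript made. In Fbl it was 4209 bases, while the longest annotated transcript has 2411. The order depends on this length. Before division Ncl had more CPM than Npm1 (784 against 376 in Grhl3 KO, 814 against 419 in wild type). Reads of some members are hard to assign: of the longest annotated transcript, 62.8% in Odc1, 60.5% in Pes1, 53.8% in Npm1 and 27.5% in Nop56 lay in stretches that match other genes' transcripts, mostly those of pseudogenes, at 95% identity or more. The counts of these 4 genes are therefore uncertain. Smaller such stretches lay in other members, among them 16.9% in Wdr12 and 13.1% in Eif4e.

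The study's comparison asks what changes in carcinogen-exposed oesophagus when Grhl3 is lost. In edgeR's quasi-likelihood test of Grhl3 KO against wild type, none of the 33 members reached the threshold of 0.05 on the adjusted p, where 0.0801% of all tested genes did (11 of 13731). At an unadjusted p under 0.05 the count was 0 members, beside 7.16% of all genes, and in none did the 2 groups of libraries fail to overlap, against 1.35% of all genes. DESeq2 and limma voom also called 0 members, where they called 0.867% and 0.00728% of all genes. At an unadjusted p under 0.05, DESeq2 gave 1 member, Mxd1, beside 8.39% of all genes, and limma voom 0 members beside 6.69%. The fitted levels were higher for 14 members and lower for 19, with a median log2 fold change of −0.01 beside 0.00 over all genes. For 31 of 33 members the 95% limits of the difference lay within 1 log2 unit on either side of 0, beside 10944 of 13731 tested genes. A 2-fold change of these 31 members lay outside the limits, and the exceptions were Mxd1 and Odc1.

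**Figure D1:**
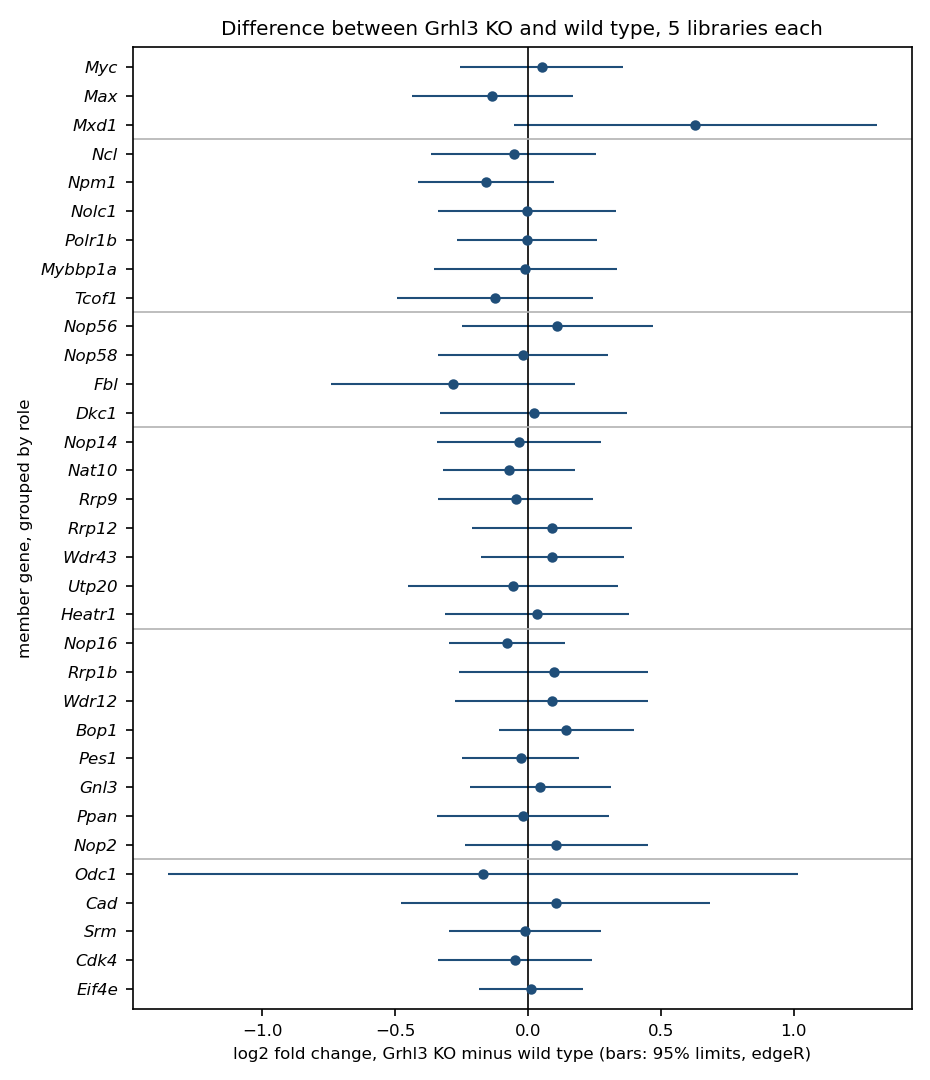
Log2 fold change of each of the 33 members, Grhl3 KO minus wild type (points, horizontal axis), with 95% limits from edgeR (bars), genes grouped by role from top to bottom. All limits cross 0, Mxd1 lies farthest from 0 at 0.63, and Odc1 has the widest limits (−1.35 to 1.02).

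Myc did not differ detectably between the groups. It stood at 142, 125, 118, 124 and 94.6 CPM in Grhl3 KO libraries 1026, 1027, 1035, 1036 and 1043, and at 143, 92.8, 114, 101.3 and 132 CPM in wild-type libraries 1028, 1048, 1528, 1555 and 1561. The groups covered the same range, and each held a library near 143 and one near 93 to 95 CPM. The gene (ENSMUSG00000022346, GRCm38 chromosome 15, 61985391 to 61990374) averaged 121 ± 17.3 CPM in Grhl3 KO libraries and 117 ± 21.0 CPM in wild-type libraries (SD, n = 5 each), a log2 fold change of 0.05 (SE 0.14, 95% limits −0.26 to 0.36, edgeR adjusted p = 0.974). Its sign turned with single libraries: it was −0.02 when wild-type library 1048 was left out and 0.13 when wild-type library 1028 was.

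Max, the obligate partner of MYC and of MXD1, was even across the Grhl3 KO libraries at 78.0, 92.0, 78.0, 84.2 and 81.4 CPM (samples 1026, 1027, 1035, 1036 and 1043). It was scattered in wild type, at 115, 76.8, 87.9, 106 and 68.0 CPM (samples 1028, 1048, 1528, 1555 and 1561), so that the wild-type libraries lay on both sides of the Grhl3 KO range. The log2 fold change was −0.13 (SE 0.14, 95% limits −0.44 to 0.17, edgeR adjusted p = 0.906).

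Mxd1, the MYC antagonist, had the smallest p of the members. It stood at 84.7, 259, 152, 248 and 167 CPM in Grhl3 KO (samples 1026, 1027, 1035, 1036 and 1043) and at 107, 108, 145, 162 and 66.1 CPM in wild type (samples 1028, 1048, 1528, 1555 and 1561). Grhl3 KO libraries 1027, 1036 and 1043 lay above every wild-type library, while 1026 lay below 4 of them. The means were 182 ± 72.4 CPM in Grhl3 KO libraries and 118 ± 37.5 CPM in wild-type libraries (SD, n = 5 each), and the log2 fold change of 0.63 (SE 0.31, 95% limits −0.05 to 1.31) missed the threshold (edgeR adjusted p = 0.728; 1268th of 13731 genes by p). It was 0.46 when Grhl3 KO library 1027 was left out and 0.96 when wild-type libraries 1528 and 1555 were, with adjusted p from 0.351 to 0.933 over the alternatives. Markers of suprabasal keratinocytes, cells in which Mxd1 is known to be made, summed to 27180 to 49172 CPM in Grhl3 KO libraries and to 19228 to 89376 CPM in wild-type libraries over 9 measured genes, of which 2 were higher, 7 lower and 0 passed. At an unadjusted edgeR p under 0.05 there were 4 of the 9 (Ivl, Sprr3 and Cnfn lower, Crnn higher), beside 7.16% of all genes. With the mean of the 9 markers as a covariate, an alternative added after the data were seen, the Mxd1 log2 fold change was 0.81 (edgeR adjusted p = 0.351).

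The balance of Myc to Mxd1 counts, which are not corrected for length, varied widely within both groups. The ratio was 1.68, 0.483, 0.777, 0.501 and 0.567 in Grhl3 KO libraries 1026, 1027, 1035, 1036 and 1043, and 1.34, 0.858, 0.784, 0.624 and 2 in wild-type libraries 1028, 1048, 1528, 1555 and 1561. The highest and lowest ratios were thus in wild-type library 1561 and Grhl3 KO library 1027, and the groups overlapped.

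**Figure D2:**
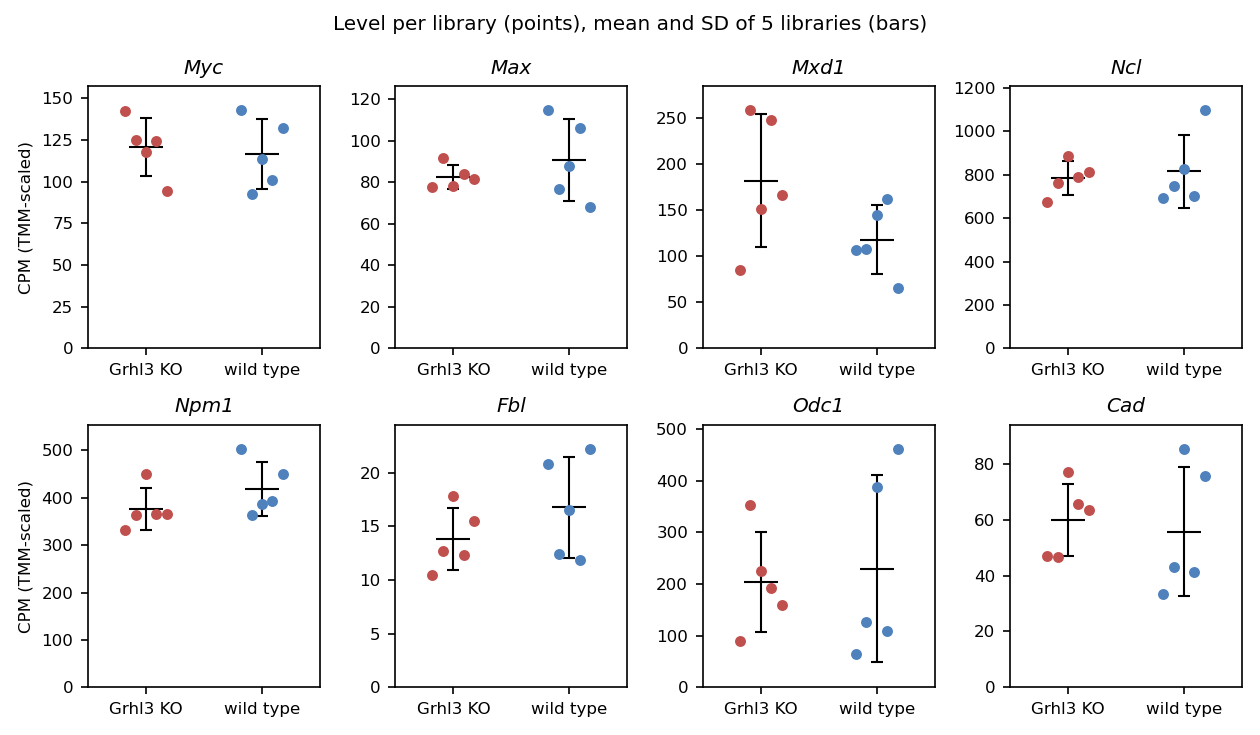
CPM on the vertical axis, from 0, of 8 members in each of the 5 Grhl3 KO libraries (left, red) and 5 wild-type libraries (right, blue), with the mean and SD of each group in black. The groups overlap for each gene, and Odc1 spans 64.7 to 462 CPM within wild type.

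Of the other MYC network genes (11 measured: Mycn, Mycl, the remaining Mxd and Mlx family members, Mnt, Mga and Zbtb17), 4 were higher and 7 lower, and 0 passed. Mycl, a MYC relative, had the smallest p of them, at 10.7 ± 2.43 CPM in Grhl3 KO libraries and 19.0 ± 8.62 CPM in wild-type libraries. Its log2 fold change was −0.83 (SE 0.29, edgeR adjusted p = 0.531). Wild-type libraries 1028 and 1555 held 32.3 and 22.4 CPM and the other 8 libraries 7.87 to 16.5 CPM. Mycn was near the detection floor, at 0.314 to 1.48 CPM in all libraries. Mnt, which like MXD1 pairs with MAX, stood at 32.4 ± 3.53 CPM in Grhl3 KO libraries and 30.7 ± 3.89 CPM in wild-type libraries.

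The 6 genes of nucleolar organisation and rRNA transcription all had slightly lower fitted values in Grhl3 KO, with log2 fold changes from −0.16 to 0.00 and adjusted p-values from 0.841 to 0.999. Npm1 was at 333, 364, 450, 366 and 366 CPM in Grhl3 KO (samples 1026, 1027, 1035, 1036 and 1043) and at 503, 363, 386, 393 and 449 CPM in wild type (samples 1028, 1048, 1528, 1555 and 1561). Grhl3 KO libraries 1026, 1027, 1036 and 1043 lay at or below 366 CPM, but 1035 reached the level of wild-type library 1561, and the log2 fold change of −0.16 (SE 0.12, 95% limits −0.41 to 0.10) had an edgeR adjusted p of 0.841. Ncl stood at 673, 762, 885, 789 and 813 CPM in Grhl3 KO and at 693, 749, 828, 703 and 1098 CPM in wild type, in the same sample order. Wild-type library 1561 was the highest of all for Ncl, and the log2 fold change of −0.05 (SE 0.14) turned to 0.08 without it. Polr1b, a core subunit of RNA polymerase I, averaged 39.4 ± 6.34 CPM in Grhl3 KO libraries and 39.6 ± 3.97 CPM in wild-type libraries. Tcof1, encoding the rRNA transcription factor treacle, averaged 37.6 ± 5.25 and 41.0 ± 10.4 CPM in Grhl3 KO and wild type. Nolc1, a chaperone of small nucleolar RNPs, averaged 91.2 ± 14.7 and 91.4 ± 19.2 CPM, and Mybbp1a, a nucleolar MYB-binding protein gene, 177 ± 36.3 and 178 ± 31.7 CPM in the same order. In the 14 other genes of RNA polymerase I and its factors, 7 were higher and 7 lower with 0 passing, the initiation factor gene Rrn3 being at 71.0 ± 7.09 CPM in Grhl3 KO libraries and 71.2 ± 5.94 CPM in wild-type libraries.

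The core proteins of the small nucleolar RNPs, which guide methylation and pseudouridylation of rRNA, gave 2 higher and 2 lower values. Fbl, encoding the methyltransferase fibrillarin, had the lowest log2 fold change of all members, −0.28 (SE 0.21, 95% limits −0.74 to 0.18, edgeR adjusted p = 0.841). It stood at 10.5, 12.7, 17.8, 12.4 and 15.5 CPM in Grhl3 KO and at 20.8, 12.4, 16.6, 11.9 and 22.2 CPM in wild type, in the sample order above. Wild-type libraries 1028 and 1561 lay above every Grhl3 KO library and the other 3 wild-type libraries lay among them. Its partners in the same complex gave smaller differences: Nop56 averaged 100.9 ± 19.5 CPM in Grhl3 KO libraries and 93.6 ± 19.9 CPM in wild-type libraries, and Nop58 145 ± 25.9 and 147 ± 25.5 CPM in the same order. Dkc1, encoding the pseudouridine synthase dyskerin, averaged 85.4 ± 16.1 CPM in Grhl3 KO libraries and 84.1 ± 16.8 CPM in wild-type libraries. Of 12 other genes of these particles 5 were higher and 7 lower and 0 passed, Gar1 being lowest in p at −0.33 (SE 0.14, edgeR adjusted p = 0.692).

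Among the 7 members of the small subunit pathway 3 were higher and 4 lower, from −0.07 to 0.09. Wdr43, a protein gene of the small subunit processome, stood at 123, 114, 167, 131 and 160 CPM in Grhl3 KO and at 142, 129, 131, 109 and 142 CPM in wild type, in the sample order above. Grhl3 KO libraries 1035 and 1043 lay above every wild-type library and the rest overlapped. It averaged 139 ± 23.1 CPM in Grhl3 KO libraries and 131 ± 13.3 CPM in wild-type libraries (log2 fold change 0.09, SE 0.12, 95% limits −0.18 to 0.36, edgeR adjusted p = 0.937). The scaffold genes Heatr1 and Utp20 averaged 69.4 ± 14.99 and 49.4 ± 12.8 CPM in Grhl3 KO and 67.8 ± 11.5 and 51.4 ± 8.56 CPM in wild type. Nop14 averaged 52.9 ± 9.05 CPM in Grhl3 KO libraries and 54.2 ± 8.75 CPM in wild-type libraries, and Nat10, encoding an rRNA acetyltransferase, 37.0 ± 3.27 and 38.9 ± 5.82 CPM in the same order. Rrp9, a protein gene of the U3 particle, stood at 27.9 to 34.4 CPM in Grhl3 KO libraries and 23.3 to 39.5 CPM in wild-type libraries, and the export factor gene Rrp12 at 27.8 to 46.2 and 29.5 to 39.0 CPM. Of 40 other small subunit processome genes, 24 were higher and 16 lower, the median log2 fold change was 0.02 and 0 passed.

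The large subunit members gave 5 higher and 3 lower values, from −0.08 to 0.14. Bop1, Pes1 and Wdr12 encode a complex that processes the precursor of the large subunit rRNA. Bop1 had 75.4, 68.5, 83.2, 78.9 and 75.3 CPM in Grhl3 KO (samples 1026, 1027, 1035, 1036 and 1043) and 66.3, 72.5, 70.9, 52.2 and 83.3 CPM in wild type (samples 1028, 1048, 1528, 1555 and 1561). The wild-type libraries ran both below and up to the Grhl3 KO range, and the log2 fold change was 0.14 (SE 0.12, 95% limits −0.11 to 0.40, edgeR adjusted p = 0.862). Pes1 averaged 103 ± 10.6 CPM in Grhl3 KO libraries and 105 ± 11.4 CPM in wild-type libraries, and Wdr12 31.0 ± 5.35 and 29.1 ± 6.68 CPM in the same order. Nop2, an rRNA methyltransferase gene, averaged 72.4 ± 13.3 CPM in Grhl3 KO libraries and 67.3 ± 14.0 CPM in wild-type libraries. Gnl3, encoding nucleostemin, averaged 107 ± 14.0 and 104 ± 15.7 CPM in Grhl3 KO and wild type, and the assembly factor genes Nop16, Ppan and Rrp1b differed by less than their SD: Nop16 averaged 54.1 ± 4.13 and 57.1 ± 7.24 CPM, Ppan 56.7 ± 6.06 and 57.5 ± 12.9 CPM and Rrp1b 31.3 ± 5.95 and 29.3 ± 5.75 CPM in the same order. In 38 other large subunit assembly genes, 24 were higher and 14 lower with a median of 0.03, and 0 passed; Eif6, encoding a factor that keeps the subunits apart, had the smallest p at 0.24 (SE 0.13, edgeR adjusted p = 0.763).

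The growth and metabolism members held the most variable gene of the group. Odc1, the rate-limiting enzyme of polyamine synthesis, stood at 90.2, 353, 226, 192 and 160 CPM in Grhl3 KO libraries 1026, 1027, 1035, 1036 and 1043. In wild-type libraries 1028, 1048, 1528, 1555 and 1561 it stood at 64.7, 126, 388, 108 and 462 CPM, a 7.13-fold range over the study. Its SD over the 10 libraries was 0.95 on the log2 scale, larger than in 94.98% of tested genes, and wild-type libraries fell into 3 low and 2 high values with the Grhl3 KO libraries between and among them. The log2 fold change was −0.17 (SE 0.54, 95% limits −1.35 to 1.02, edgeR adjusted p = 0.979). It became 1.098 (edgeR adjusted p = 0.915) when the number series of the sample names was a term. Wild-type libraries 1528, 1555 and 1561 form one series and all others the second. In that fit the Grhl3 KO libraries were thus compared with wild-type libraries 1028 and 1048 alone. What the numbers stand for is not stated in the labels. Odc1 was singled out after its values were seen, and its near-identical pseudogenes add to the uncertainty.

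The other polyamine genes (15 measured) had 10 higher and 5 lower values and 0 past the threshold. The smallest p-values of the list were those of Oaz1 and Azin1, and the related genes Oaz2 (log2 fold change −0.12) and Azin2 (0.11) had edgeR adjusted p-values of 0.886 and 0.978. Azin1, encoding the antizyme inhibitor that spares ODC1, averaged 154 ± 24.1 CPM in Grhl3 KO libraries and 118 ± 21.7 CPM in wild-type libraries, a log2 fold change of 0.39 (SE 0.15, edgeR adjusted p = 0.622). Oaz1, encoding the antizyme that targets ODC1 for degradation, averaged 25.3 ± 2.47 CPM in Grhl3 KO libraries and 30.4 ± 2.82 CPM in wild-type libraries, a log2 fold change of −0.27 (SE 0.10, edgeR adjusted p = 0.575). Srm, encoding spermidine synthase, averaged 82.5 ± 4.80 CPM in Grhl3 KO libraries and 83.2 ± 17.9 CPM in wild-type libraries.

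Cad, encoding the enzyme that starts pyrimidine synthesis, followed a pattern close to that of Odc1 in wild type. It had 46.99, 46.5, 76.9, 65.5 and 63.5 CPM in Grhl3 KO (samples 1026, 1027, 1035, 1036 and 1043) and 33.5, 43.0, 85.3, 41.3 and 75.6 CPM in wild type (samples 1028, 1048, 1528, 1555 and 1561). Wild-type libraries 1528 and 1561 were again the high ones, and the log2 fold change was 0.10 (SE 0.26, 95% limits −0.48 to 0.69, edgeR adjusted p = 0.971). Without wild-type libraries 1528, 1555 and 1561, which leaves 5 Grhl3 KO and 2 wild-type libraries, it was 0.65 (edgeR adjusted p = 0.729). The 20 other nucleotide synthesis genes had 8 higher and 12 lower values and 0 passing. Cdk4, the cyclin-dependent kinase gene with 4 promoter E-boxes, averaged 187 ± 23.2 CPM in Grhl3 KO libraries and 193 ± 33.5 CPM in wild-type libraries. Eif4e, the cap-binding translation factor gene, was the steadiest member, at 100.3 ± 8.16 CPM in Grhl3 KO libraries and 99.5 ± 8.93 CPM in wild-type libraries. Of 9 measured genes related to Eif4e, 0 passed. These were genes of its complex, its relatives Eif4e2 and Eif4e3, and the binding protein genes Eif4ebp1 and Eif4ebp2.

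While no member passed between the groups, most members varied together from library to library. Grhl3 KO library 1035 or wild-type library 1561 was the highest of the 10 libraries for 26 of 33 members, and wild-type library 1555 was the lowest for 15. Grhl3 KO library 1027 and wild-type library 1048 were the lowest for 5 members each, and Grhl3 KO library 1026 for 4. The 33 members together took 0.339, 0.361, 0.465, 0.374 and 0.370% of all counts in Grhl3 KO libraries 1026, 1027, 1035, 1036 and 1043. They took 0.328, 0.361, 0.422, 0.302 and 0.525% in wild-type libraries 1028, 1048, 1528, 1555 and 1561, so the highest and the lowest share were both in wild type. Of the variance of log2 CPM over the libraries, the median member had 1.96% between the groups, against 6.36% for the median gene tested.

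**Figure D3:**
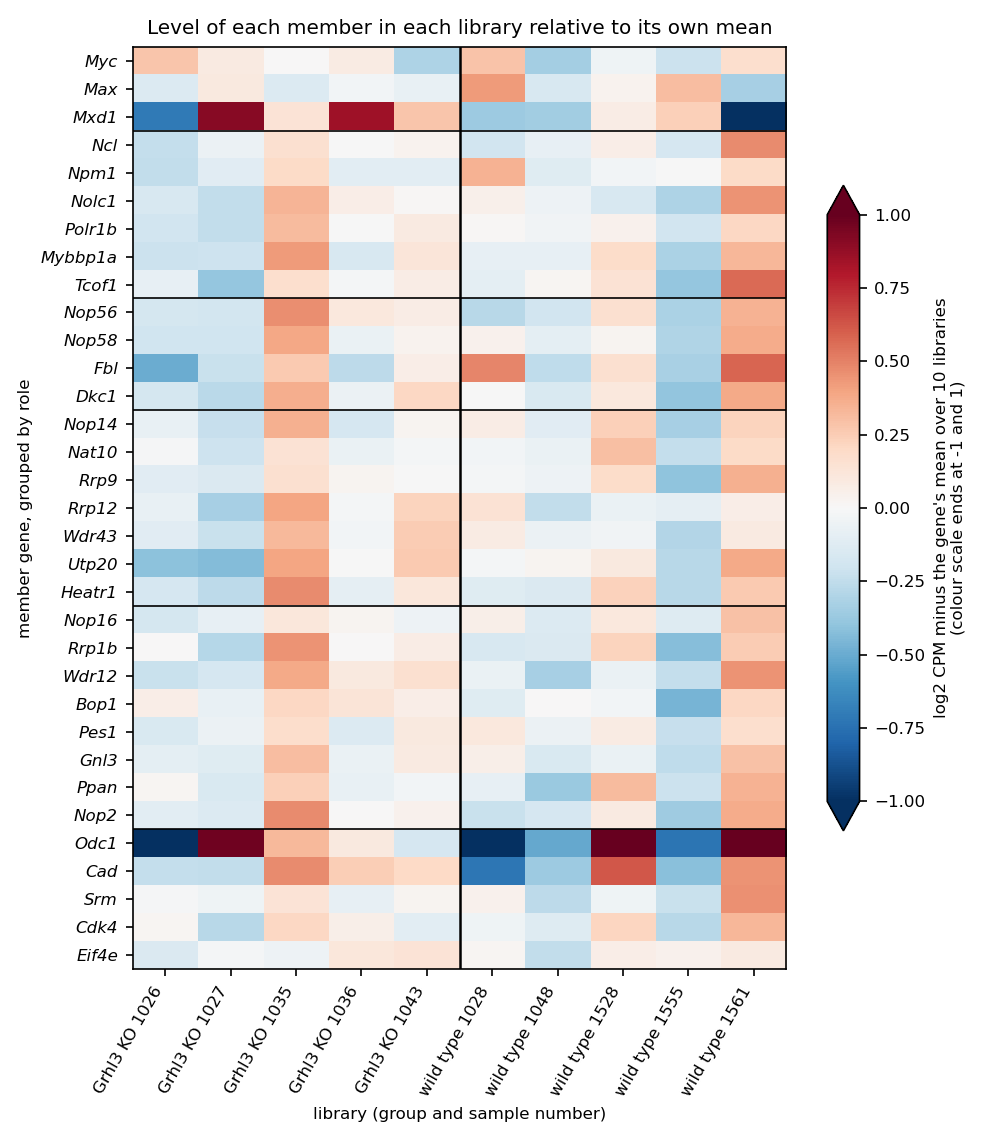
Log2 CPM of each member (rows, grouped by role) in each library (columns, Grhl3 KO left of the line and wild type right), minus the gene's own mean over the 10 libraries; red is higher and blue lower. The nucleolar rows are mostly red in Grhl3 KO 1035 and wild type 1561 and mostly blue in Grhl3 KO 1026 and 1027 and in wild type 1048 and 1555, while Myc, Max, Mxd1 and Odc1 follow other patterns.

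Over the 10 libraries the 25 nucleolar members had a median pairwise Pearson correlation of 0.78 in log2 CPM (300 pairs, all above 0, from 0.03 to 0.98). Over all 33 members the median was 0.70 (528 pairs), where the median pair of tested genes had 0.00. These values are descriptions, since the genes share libraries and their depth and scaling. Scaling centres each library, which holds the median over all tested pairs near 0. That median therefore does not gauge how unusual 0.70 is. Dkc1, Nop58 and Polr1b were closest to the rest, with median correlations to the other nucleolar members of 0.89, 0.86 and 0.86 (Spearman 0.87, 0.83 and 0.87), and Npm1 was the loosest at 0.49 (Spearman 0.51). The median over the 33 members was 0.73 after centring within each group, 0.71 without wild-type libraries 1528 and 1555, and 0.48 without the 2 highest libraries, Grhl3 KO 1035 and wild type 1561. For the nucleolar members alone it was 0.62 without those 2, with 293 of 300 pairs above 0.

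Myc RNA showed no clear relation to this variation, although correlations over 10 libraries are imprecise. Its correlation with the 25 nucleolar members ran from −0.21 (Utp20) to 0.39 (Ppan) with a median of 0.15. Myc with the median tested gene gave 0.00, a value that scaling holds near 0. With the growth and metabolism members it ran from −0.08 (Cad) to 0.51 (Srm). Wild-type library 1028 held the most Myc at 143 CPM while its nucleolar members lay at their mean (0.00 on the log2 scale), and Grhl3 KO library 1026 held nearly as much at 142 CPM with nucleolar members at −0.15. Other libraries went the same way in both: wild type 1561 was high (132 CPM and 0.31). Wild type 1048 (92.8 CPM and −0.12) and 1555 (101.3 CPM and −0.28) were low. Max ran opposite to the nucleolar members, with a median correlation of −0.48 that shrank to −0.15 without libraries 1035 and 1561, and Mxd1 had −0.30, which shrank to −0.08. Of the metabolic members, Cdk4, Srm and Cad had median correlations with the nucleolar members of 0.79, 0.71 and 0.66, Odc1 0.44 and Eif4e 0.25.

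**Figure D4:**
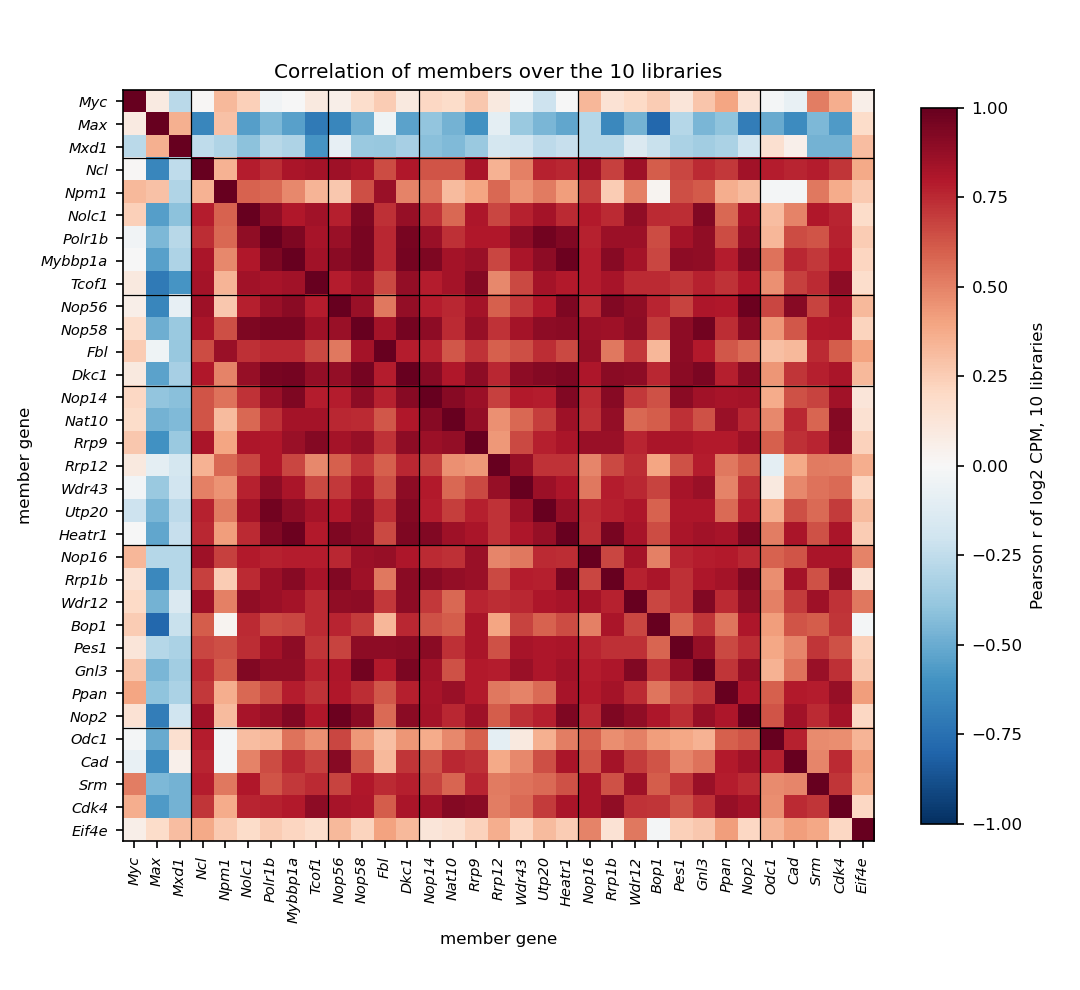
Pearson correlation of log2 CPM over the 10 libraries for each pair of the 33 members, in the same gene order on both axes and with lines between roles; red is positive and blue negative. The nucleolar block is above 0 throughout with a median of 0.78, Myc is pale, and Max and Mxd1 are blue against most nucleolar genes.

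A similar order of libraries appeared in ribosome assembly genes that are not members. Relative to its own mean over the libraries, the average log2 CPM of the 25 nucleolar members was −0.15, −0.20, 0.31, −0.03 and 0.08 in Grhl3 KO libraries 1026, 1027, 1035, 1036 and 1043. It was 0.00, −0.12, 0.09, −0.28 and 0.31 in wild-type libraries 1028, 1048, 1528, 1555 and 1561. The average of 40 other small subunit processome genes was 0.19 in Grhl3 KO 1035, 0.21 in wild type 1561 and −0.17 in wild type 1555, and it correlated with that of the nucleolar members at Pearson 0.98 (Spearman 0.95; Pearson 0.95 without Grhl3 KO 1035 and wild type 1561). The 38 other large subunit genes gave 0.98 (Spearman 0.93; 0.95 without those libraries), 12 genes of the small nucleolar RNPs 0.94 (Spearman 0.98; 0.97), 14 RNA polymerase I genes 0.90 (Spearman 0.79; 0.70) and 20 nucleotide synthesis genes 0.88 (Spearman 0.82; 0.68), the last value in each bracket being Pearson without those libraries. The other MYC network genes gave 0.11 (Spearman 0.30; 0.23), the polyamine genes −0.50 (Spearman −0.55; −0.42) and the 9 genes related to Eif4e −0.31 (Spearman −0.25; −0.71).

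Markers of dividing cells followed a similar order of libraries. The 8 proliferation markers, among them Mki67 and Top2a, averaged −0.31, −0.33, 0.35, 0.21 and 0.19 in Grhl3 KO libraries 1026, 1027, 1035, 1036 and 1043, relative to their mean. In wild-type libraries 1028, 1048, 1528, 1555 and 1561 they averaged −0.29, 0.19, 0.02, −0.62 and 0.59. Libraries 1561 and 1555 were again the highest and lowest, and the correlation with the nucleolar average was 0.84 (Spearman 0.84; Pearson 0.69 without Grhl3 KO 1035 and wild type 1561). The summed CPM of these markers ran from 564 to 921 in Grhl3 KO and from 470 to 1039 in wild type. Correlations with the nucleolar average were −0.18 (Spearman −0.10; Pearson −0.28 without those libraries) for basal keratinocyte markers and −0.27 (0.0061; 0.31) for suprabasal markers, whose sign thus turned. In the same order of values they were 0.07 (0.05; 0.08) for skeletal muscle, −0.43 (−0.49; −0.35) for smooth muscle, 0.29 (0.21; 0.11) for fibroblast, −0.34 (−0.36; −0.32) for leukocyte and 0.53 (0.41; 0.65) for endothelial markers, and no marker of these lists was at 0 in all libraries. The part of cell composition in the shared variation was not tested.

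**Figure D5:**
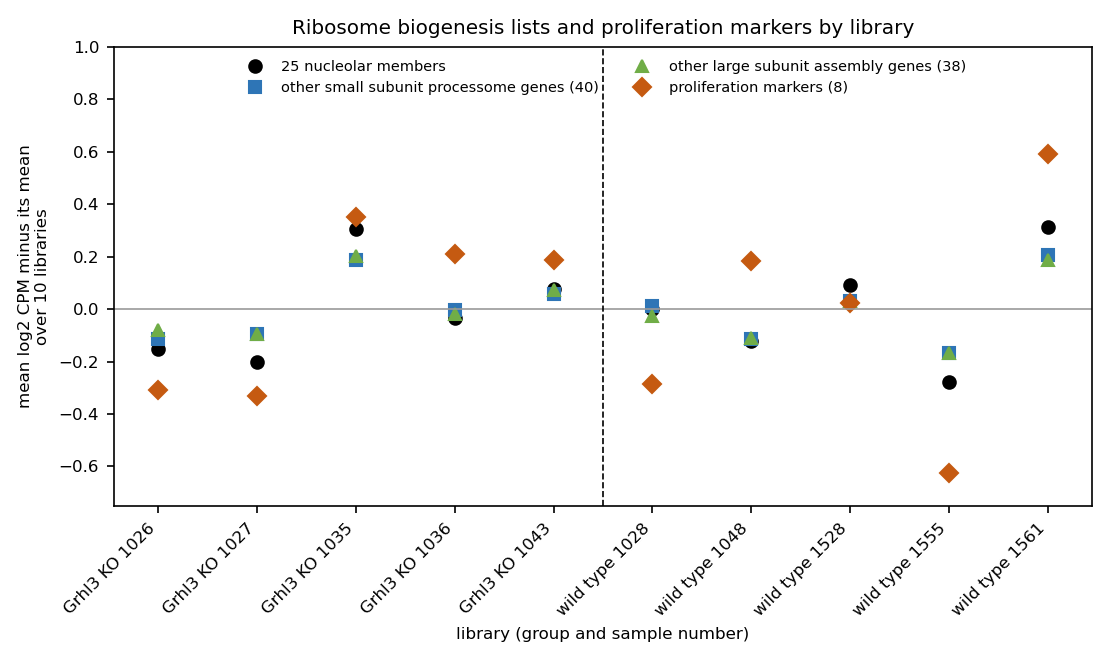
Mean log2 CPM of 4 gene lists in each library (Grhl3 KO left of the dashed line, wild type right), minus the list's own mean over the 10 libraries. The 25 nucleolar members, 40 other small subunit genes and 38 other large subunit genes lie close to each other in each library, highest in Grhl3 KO 1035 and wild type 1561, and the 8 proliferation markers span −0.62 to 0.59.

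The balance of higher and lower members turned on single libraries. It was 14 higher and 19 lower with all libraries, 28 higher and 5 lower without wild-type library 1561, and 5 higher and 28 lower without Grhl3 KO library 1035. With the number series as a term, or without wild-type libraries 1528, 1555 and 1561, it was 27 and 6. Both of these fits set the Grhl3 KO libraries against wild-type libraries 1028 and 1048 alone, so they are not separate checks. Without 1528 and 1555 the balance was 12 and 21. No member passed in any of these fits. The median log2 fold change of the members stayed between −0.09 and 0.08 over these and the other alternatives.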

How the data were processed

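The deposited table holds raw counts per protein-coding gene in 10 columns, joined to the samples by the number in each title. The authors counted reads with featureCounts against GRCm38, per the submitters' processing notes; neither the aligner nor the release of the annotation is recorded there, and the file name describes the counts as reverse-stranded. The table has 0 further sample columns and 0 rows without a gene name. Genes were kept with filterByExpr (minimum count 10, minimum total 15), scaled by TMM factors and tested with the robust quasi-likelihood F-test of edgeR 4.0.16 (R 4.3.3), with all 10 libraries, no covariate and Benjamini-Hochberg adjustment over 13731 genes at 0.05. SE follows from the F statistic; log2 CPM has a prior count of 2. DESeq2 1.42.0 and limma voom 3.58.1 were alternatives, besides other scaling, filters, covariates and left-out libraries. Exon lengths and positions come from GENCODE vM21 (GRCm38), promoters from RefSeq (GRCm38.p6); similarity was searched with blastn 2.17.0 (at least 75 bases, 95% identity). The fit was tested on simulated data. The members and lists were chosen with earlier results of these data known. Full statistics are given for Myc, Max and Mxd1 and for the 3 members of smallest p in each direction, and up to 4 genes of smallest p per other list were eligible to be named; Odc1, Cad, Ncl and other genes named beside these were chosen after their values were seen.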

Additional observations from a re-analysis of the deposited data

Results flagged for a closer look

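In 4 of 66 groups of 5 libraries, one per member and genotype, a single library stood far from the other 4 by Dixon's criterion (a gap over 0.71 of the range), which chance gives in about 1 of 20 groups. Grhl3 KO library 1035 was high for Npm1, at 450 CPM while the remaining libraries of that group lay at 333 to 366 CPM. It was also high for Nop2, at 95.4 CPM against 62.7 to 70.7 CPM. Wild-type library 1561 was high for Wdr12, at 40.5 CPM against 23.5 to 28.3 CPM in the other wild-type libraries. Wild-type library 1048 was low for Eif4e, at 83.9 CPM against 100.8 to 106 CPM.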

How the results depend on the processing

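No member passed an adjusted p of 0.05 under any of the 20 alternatives (lowest 0.351, for Mxd1 with a suprabasal covariate). Over all genes, 11 passed in edgeR, 119 in DESeq2, 1 in limma voom, 7 without a filter, 1 with the number series as a term, 1 without wild-type libraries 1528 and 1555, and 1 to 16 with a library left out; of alternatives added after seeing the data, 1 passed without wild-type libraries 1528, 1555 and 1561 and 58 with a suprabasal covariate. Of 200 refitted log2 fold changes of 10 named members, 185 kept their sign. With a library left out Myc ran from −0.020 to 0.13, Odc1 from −0.47 to 0.25, Cad from −0.043 to 0.31 and Ncl from −0.12 to 0.078. Without wild-type libraries 1528 and 1555 Myc was −0.021. Odc1 was 0.072 in limma voom, 1.098 with the number series as a term and 1.099 without wild-type libraries 1528, 1555 and 1561. Ncl was 0.12 in both of the last fits. Both set the Grhl3 KO libraries against wild-type libraries 1028 and 1048 alone, so their agreement follows from the design. Why the wild-type libraries differed was not tested. The median correlation among members was 0.48 without Grhl3 KO 1035 and wild type 1561. Every member had at least 167 reads in every library; counting error and variation between libraries were not separated.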

Other observations

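Most members, like most tested genes, had a wider spread in wild type than in Grhl3 KO. The SD of log2 CPM was larger in wild type for 26 of 33 members (78.8%), against 67.0% of all tested genes. Max had an SD of 0.098 over Grhl3 KO libraries and 0.31 over wild-type libraries, Srm 0.082 and 0.29, and Odc1 0.72 and 1.23 in the same order; these genes were chosen after their values were seen, and the difference in spread was not tested.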
